A study of Homo sapiens with 2 samples.

Results

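The mitochondrial ribosomal protein genes were examined in Hep3B cells, an established human hepatocellular carcinoma line, exposed to the compound A4368 at 25 µM for 24 h and in untreated control cells, with 1 RNA-seq library of each. Their members were all rows with values whose symbol begins with MRPL (large subunit) or MRPS (small subunit) followed by a digit and holds no hyphen. This gave 78 of the 11511 genes with values, 49 of them MRPL and 29 MRPS, and none was a pseudogene symbol. Both cultures are the same cell line in serum-containing medium, and A4368 is known here only by its code. The sources used here give neither a vehicle nor a read depth.

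Mitochondria keep their own ribosome, which translates the few proteins encoded in mitochondrial DNA, all of them core subunits of the respiratory chain and the ATP synthase. Its ribosomal RNAs come from mitochondrial DNA, but every one of its proteins is encoded in the nucleus, made in the cytosol and imported. Some of these proteins descend from bacterial ribosomal proteins and others exist only in mitochondria. Inherited defects in several of them, MRPS22, MRPS16 and MRPL44 among them, cause disease through loss of oxidative phosphorylation, and liver is one of the tissues that depend on it.

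Values are FPKM, a level that counts fragments relative to transcript length and to the size of the library. The ratio of a gene is log2((A4368 FPKM + 1)/(control FPKM + 1)), so that a negative ratio means a lower value with A4368. The pseudocount makes the ratio slightly smaller than the plain fold. All 78 genes lay above the filter of a mean of 1 FPKM that left 11238 genes in all. With 1 library per group no difference below has a replicate check or a p-value, and each is a difference between these libraries. In bulk RNA, a change in the number of cells carrying a transcript and a change per cell cannot be told apart. All 6 hepatoma and hepatocyte markers had values, with ALB at 8930 FPKM with A4368 and 9183 FPKM in the control and AFP at 295 FPKM with A4368 and 368 FPKM in the control. Among leukocyte markers CD68 and LYZ had values, while PTPRC and CD3E had none. CD68 stood at 27.9 FPKM with A4368 and 29.98 FPKM in the control. LYZ stood at 9.48 FPKM with A4368 and 17.6 FPKM in the control, 1.86-fold lower, with a ratio of -0.83. Of 5 fibroblast and stellate markers LUM alone had a value, at 11.9 FPKM with A4368 and 17.9 FPKM in the control, and 0 of 4 endothelial markers did. The part of these cell types in the results was not tested.

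Most mitochondrial ribosomal protein genes had slightly lower values with A4368, and none differed by 1.5-fold. The ratio was below 0 in 55 of the 78 and above 0 in 23, while 48.0% of all genes at 1 FPKM or more were lower and 52.0% were higher. Their median ratio was -0.08, against 0.01 for all genes. Of the 78, 8 were lower by at least 1.2-fold, a limit passed downward by 11.1% of all genes, and 2 were higher by at least 1.2-fold, a limit passed upward by 11.2% of all genes. At 1.5-fold, 0 of the 78 were past the limit, against 3.19% of all genes in either direction. The SD of the ratios across genes was 0.17 for the 78 and 0.26 for all genes, though among the most abundant members, above 81.7 FPKM, it was 0.19, against 0.17 for all genes of that level. Summed over the 78, the values came to 5481 FPKM with A4368 and 5773 FPKM in the control, or 1.02% of all summed FPKM with A4368 and 1.04% in the control. These directions depend on how the libraries are scaled. Setting the libraries to an equal total after leaving out the 50 most abundant genes moved the median of all genes by 0.05. Then 46 of the 78 were lower, against 39.1% of all genes, and the median ratio of the 78 was -0.03. By at least 1.2-fold, 4 were then lower, against 9.62% of all genes, and 7 higher, against 17.4% of all genes. The sign turned in 9 genes whose reported ratio was closest to 0 from below, among them MRPS34, MRPS36, MRPL11 and MRPL45.

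**Figure D1:**
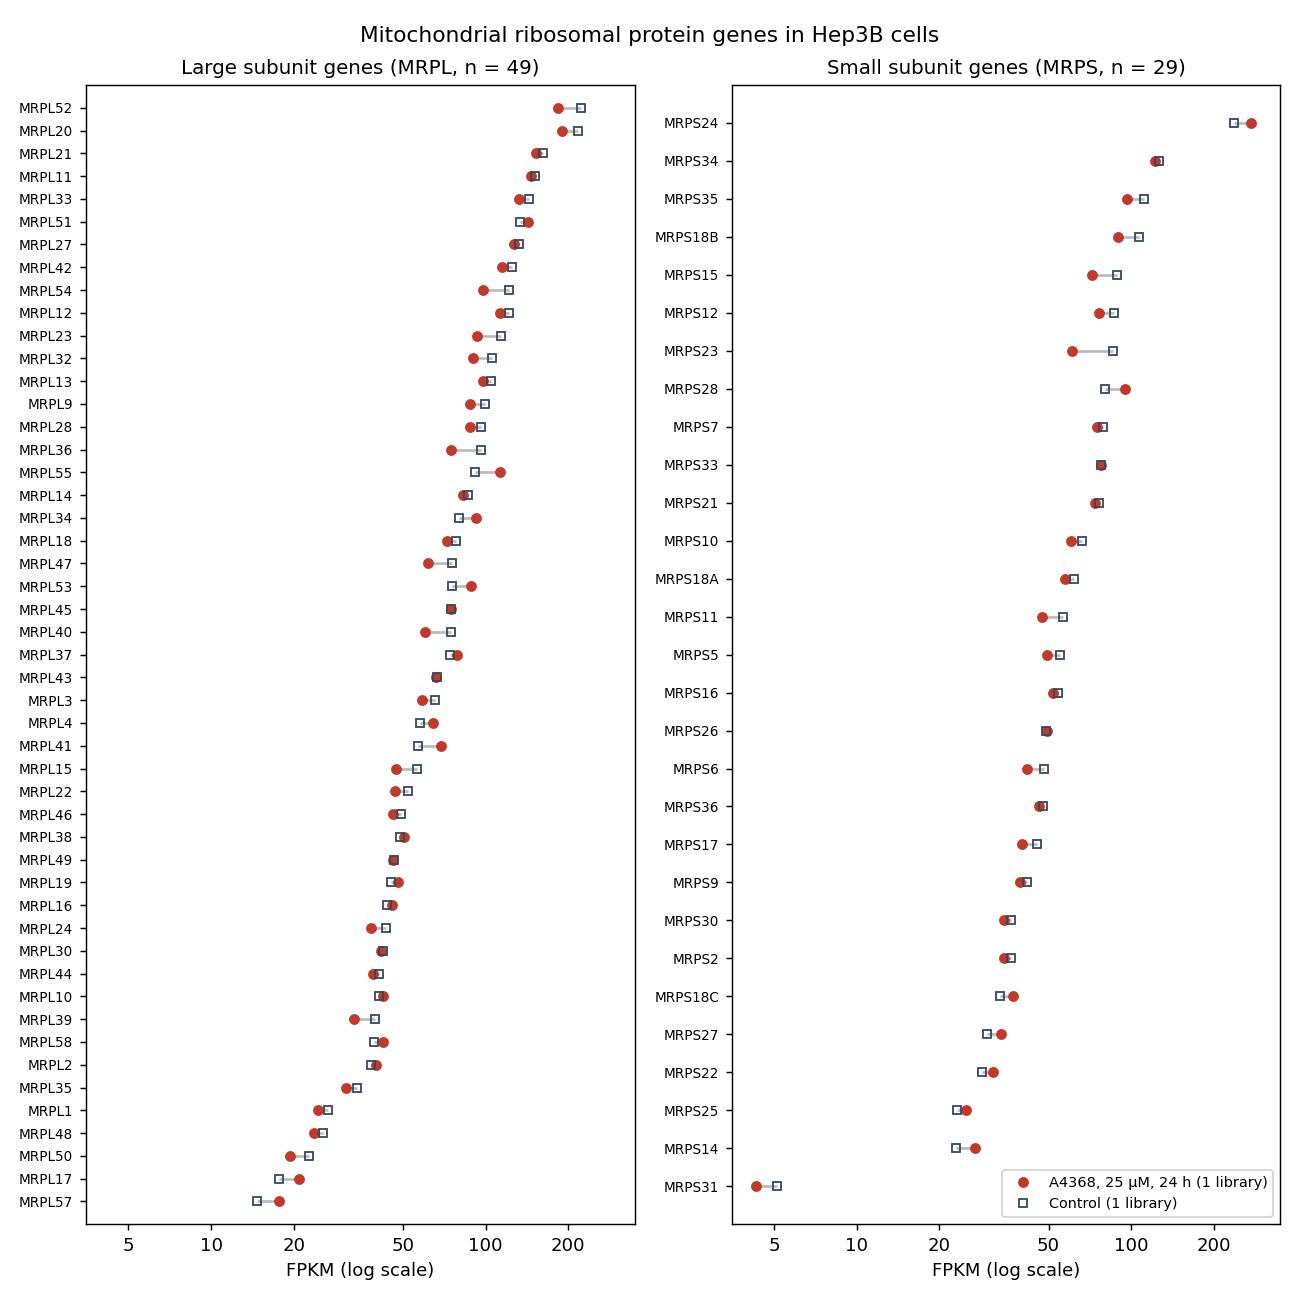
FPKM of each of the 78 genes on a log axis, with large subunit genes on the left and small subunit genes on the right, ordered by their control value. Filled circles are the A4368 library and open squares the control library, 1 library each; circles lie left of squares in 55 genes and right of them in 23.

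Large and small subunit genes did not separate. Of the 49 MRPL genes 34 were lower, with a median ratio of -0.10, and of the 29 MRPS genes 21 were lower, with a median of -0.08. The medians differed by -0.02, a small amount beside the SD of 0.17 within either subunit, and the sign of this difference turned when means were compared (0.0072). Summed FPKM was 3658 with A4368 and 3875 in the control for the large subunit, and 1823 with A4368 and 1898 in the control for the small subunit. The median level of a large subunit gene was 66.1 FPKM with A4368 and 74.5 FPKM in the control. For a small subunit gene it was 49.3 FPKM with A4368 and 55.0 FPKM in the control. The symbols do not follow the structure in every case. RefSeq lists the systematic names mL66 for MRPS18A and mL65 for MRPS30, which place both in the large subunit, and MRPS36 is known as a part of the 2-oxoglutarate dehydrogenase complex. With these moved or left out, 36 of 51 large and 18 of 26 small subunit genes were lower, with medians of -0.10 and -0.08.

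The members were also described by the ancestry of their proteins. RefSeq gives 75 of the genes a systematic name, whose first letter marks a protein with a bacterial counterpart (u or b) or one specific to mitochondria (m). Among the 44 genes with a bacterial counterpart 34 were lower, with a median ratio of -0.11, and after the rescaling 31 were lower, with a median of -0.06. Among the 31 mitochondria-specific genes 20 were lower, with a median of -0.05, and after the rescaling 15 were lower, with a median of 0.0030. Of all genes 48.0% were lower, with a median of 0.01, and after the rescaling 39.1% were lower, with a median of 0.06. The medians of both classes thus lay below that of all genes on either scale. Bacterial-type genes had medians of -0.11 in both the large and the small subunit, 30 and 14 genes, while mitochondria-specific genes had medians of -0.01 in the large subunit (19 genes) and -0.06 in the small one (12 genes). The quartiles of the classes overlapped, at -0.18 and -0.04 for bacterial-type genes and -0.20 and 0.08 for mitochondria-specific genes. In the small subunit the means were -0.10 for bacterial-type and -0.08 for mitochondria-specific genes. MRPS24, MRPS28 and MRPS36 carry no such name in RefSeq and were left out, with ratios of 0.21, 0.24 and -0.04. The proteins of MRPS24 and MRPS28 are known to have bacterial counterparts, and their ratios lie opposite to the median of that class. Counting them there would make the median and the mean of bacterial-type small subunit genes less negative.

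**Figure D2:**
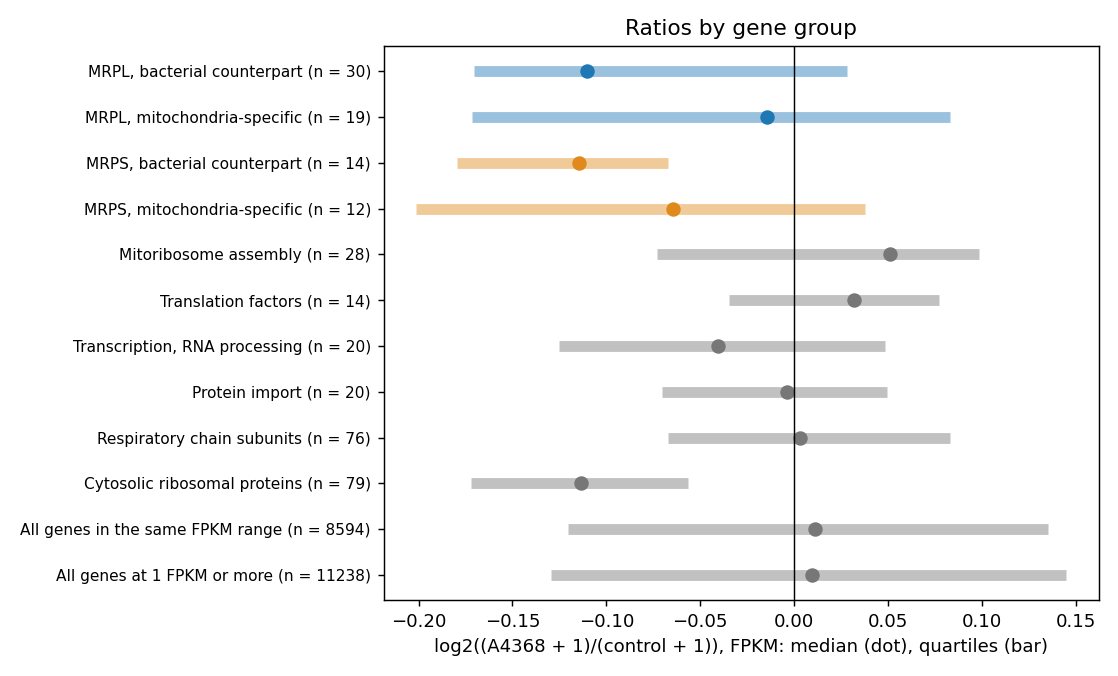
Ratio of A4368 to control on the log2(FPKM + 1) scale for the 4 classes of mitochondrial ribosomal protein genes and for other gene groups, as the median (dot) and the quartiles (bar) over genes. The bacterial-type MRPL and MRPS genes and the cytosolic ribosomal proteins lie near -0.11, and the mitochondrial groups outside the ribosome's own proteins (grey) lie between -0.04 and 0.05. The classes follow RefSeq names, so MRPS24, MRPS28 and MRPS36 are in none of them.

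The starts of the genes were searched for short words bound by known regulators of mitochondrial genes. RefSeq promoter windows (GRCh38.p14, 250 bases before to 50 after the start) were matched for 70 of the 78, namely 42 MRPL and 28 MRPS genes. They were searched on both strands for AAGATGGC, a word bound by YY1, CCGGAAG, the core bound by ETS factors such as GABP, and a 10-base word bound by NRF1, made of GCGCA, any base and GCGC. The YY1 word was present in 20 of the 70 (28.6%), against 5.89% of 9308 genes at 1 FPKM or more and 3.03% of all 27305 windows. In 15 of the 70 (21.4%) it lay on the gene's strand between 10 bases before and 50 after the start, against 3.48% of the 9308. The YY1 word holds ATG, the letters of a start codon, and whether these matches lie at the start of translation was not examined. The ETS word was present in 29 (41.4%), against 21.1% of the 9308 and 10.7% of all windows. The NRF1 word was present in 8 (11.4%), against 12.7% of the 9308. The YY1 word occurred in 28.6% of windows in each subunit, and the ETS word in 40.5% of MRPL and 42.9% of MRPS windows. The YY1 and ETS words can overlap by 3 bases, and that joined form was in 0 of the 70 windows. It was in 0.0322% of the 9308, so 0 of 70 does not set these genes apart. In all, 45 of the 70 windows (64.3%) held at least 1 of the words and 25 held none, and 34.7% of the 9308 held at least 1. A word is a description of the letters and not a site at which binding was measured.

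The matches below were picked among members that hold a word and have low or high ratios, with MRPL46 from a pair of adjacent genes, to show what the words look like. The windows of MRPL55 and MRPL41, which have the highest ratios, and of MRPS15, MRPS14 and MRPS11 hold none of the words. Capitals mark the word, or its reverse complement where it lies on the other strand, and each line is written 5′ to 3′ on the strand of the gene.
MRPS23, ETS, chr17:57850042-57850068, minus strand: ggagcagccgCTTCCGGttccggtagc
MRPL36, NRF1, chr5:1799928-1799957, minus strand: tcgcactccaGCGCCTGCGCactcgctgct
MRPL36, YY1, chr5:1799855-1799882, minus strand: cccccccgccGCCATCTTccttcctggc
MRPL40, ETS, chr22:19432524-19432550, plus strand: gggcgcacgcCCGGAAGcggcgagggt
MRPL54, ETS, chr19:3762651-3762677, plus strand: ccactgacgtCTTCCGGaaacgtgcac
MRPL47, ETS, chr3:179604661-179604687, minus strand: gcttgagacgCCGGAAGtgacgctatc
MRPL52, YY1, chr14:22829813-22829840, plus strand: acccagattcAAGATGGCgacttcctgc
MRPL57, NRF1, chr13:21176574-21176603, plus strand: cctcggctctGCGCAGGCGCagtcctctct
MRPL53, ETS, chr2:74472736-74472762, minus strand: cagccggcggCCGGAAGtctatcccgc
MRPL17, NRF1, chr11:6683402-6683431, minus strand: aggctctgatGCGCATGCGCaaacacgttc
MRPS24, YY1, chr7:43869481-43869508, minus strand: cgcttggcccAAGATGGCggcctccgtg
MRPS27, YY1, chr5:72320207-72320234, minus strand: ggtacgctccAAGATGGCtgcctccata
MRPL46, YY1, chr15:88467363-88467390, minus strand: gggagaacgaAAGATGGCggcgcccgta

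The ratios of members with and without each word were as follows. The 20 genes with the YY1 word had a median of -0.13 and 16 were lower, and the 50 without it had a median of -0.06 and 34 were lower. For the ETS word the medians were -0.06 in 29 genes with it and -0.08 in 41 without it, and 21 and 29 were lower. For the NRF1 word they were -0.02 in 8 genes with it and -0.10 in 62 without it, and 6 and 44 were lower. Of all genes 48.0% were lower, and none of these differences was tested. MRPS24 and MRPS27, both higher with A4368, and MRPL52 and MRPL36, both lower, each carry the YY1 word, as the lines above show.

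**Figure D3:**
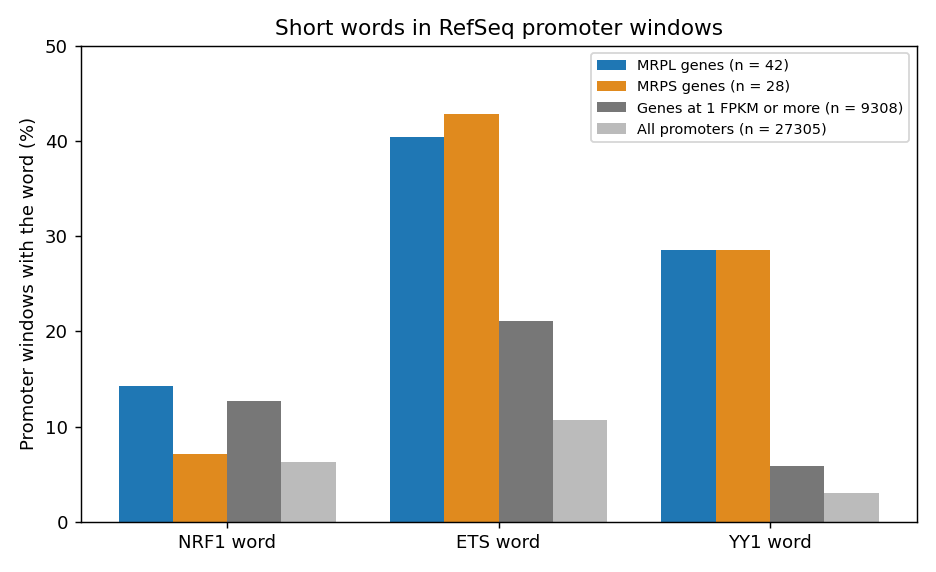
Share of promoter windows that hold each word, in percent, for 42 MRPL genes, 28 MRPS genes, 9308 genes at 1 FPKM or more and all 27305 windows. The YY1 word stands at 28.6% in both subunits against 5.89% of genes at 1 FPKM or more, while the NRF1 word does not exceed 14.3% in any group.

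Among all genes a larger share was lower at higher levels. In each of the ranges below, the 78 genes were lower more often than all genes. The 26 least abundant of the 78, with means from 4.72 to 46.2 FPKM, were lower in 15 cases, and 43.9% of all genes in that range were lower. In the middle range, from 46.7 to 80.2 FPKM, 20 of 26 were lower, against 57.4% of all genes there. In the upper range, from 81.7 to 255.6 FPKM, 20 of 26 were lower, against 66.2% of all genes there. The medians of the 3 ranges were -0.05, -0.09 and -0.12 for these genes, and 0.03, -0.03 and -0.05 for all genes of the same level. The part of expression level in the result was not tested.

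The order of the genes by level was nearly the same in both libraries. The 10 most abundant with A4368 were also the 10 most abundant in the control, and no gene moved by more than 13 places of 78. MRPS24, whose protein sits at the entry of the messenger into the small subunit, was the most abundant, at 274 FPKM with A4368 and 237 FPKM in the control. MRPL52 stood at 184 FPKM with A4368 and 224 FPKM in the control, MRPL20 at 190.1 FPKM with A4368 and 218 FPKM in the control, and MRPL21 at 153 FPKM with A4368 and 162 FPKM in the control. These are the 3 most abundant large subunit genes, and all 3 were lower. Next among small subunit genes were MRPS34, at 122 FPKM with A4368 and 126 FPKM in the control, and MRPS35, at 97.0 FPKM with A4368 and 111 FPKM in the control. At the other end, MRPS31 had 4.30 FPKM with A4368 and 5.13 FPKM in the control, the lowest level of the 78, and MRPS25 had 25.0 FPKM with A4368 and 23.1 FPKM in the control. The least abundant large subunit genes were MRPL57, MRPL17 and MRPL50, the last at 19.4 FPKM with A4368 and 22.7 FPKM in the control.

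The lowest ratio belonged to MRPS23, which encodes a mitochondria-specific protein of the small subunit. It stood at 61.0 FPKM with A4368 and 86.1 FPKM in the control, 1.41-fold lower, and 3.23% of all genes had a lower ratio. MRPS15, a small subunit protein with a bacterial counterpart, was at 71.9 FPKM with A4368 and 88.4 FPKM in the control, 1.23-fold lower. Those were the MRPS genes past 1.2-fold. MRPS11, a protein of the platform of the small subunit, had 47.3 FPKM with A4368 and 56.5 FPKM in the control. MRPS18B had 89.8 FPKM with A4368 and 106 FPKM in the control. In the large subunit, MRPL36 was the lowest, at 74.6 FPKM with A4368 and 96.2 FPKM in the control, 1.29-fold lower. MRPL40 followed at 60.1 FPKM with A4368 and 74.97 FPKM in the control, and MRPL54 at 98.0 FPKM with A4368 and 122 FPKM in the control; both encode mitochondria-specific proteins. MRPL23 and MRPL47, whose proteins border the exit of the peptide tunnel, were 1.22-fold lower each, MRPL23 at 93.4 FPKM with A4368 and 114 FPKM in the control and MRPL47 at 61.6 FPKM with A4368 and 75.4 FPKM in the control. MRPL52, given above, was the other gene lower by 1.2-fold.

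On the reported scale the highest ratios were closer to 0 than the lowest ones. MRPL55 was 1.23-fold higher, at 113 FPKM with A4368 and 91.5 FPKM in the control, and MRPL41 was 1.21-fold higher, at 68.5 FPKM with A4368 and 56.8 FPKM in the control. No other member was higher by 1.2-fold as reported, on the scale with the pseudocount. After the rescaling MRPL55 stood at 0.35 and MRPS23 at -0.44. By at least 1.2-fold 7 members were then higher and 4 lower, against 17.4% and 9.62% of all genes. MRPL57 had 17.6 FPKM with A4368 and 14.7 FPKM in the control, MRPL53 had 88.7 FPKM with A4368 and 75.3 FPKM in the control, and MRPL17 had 20.8 FPKM with A4368 and 17.7 FPKM in the control. Among small subunit genes MRPS28 was the highest, at 94.7 FPKM with A4368 and 80.2 FPKM in the control. MRPS14, a protein of the head of the small subunit, had 26.9 FPKM with A4368 and 23.1 FPKM in the control, and MRPS24 came next by ratio, at 0.21. MRPS27, a pentatricopeptide repeat protein, had 33.4 FPKM with A4368 and 29.9 FPKM in the control.

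**Figure D4:**
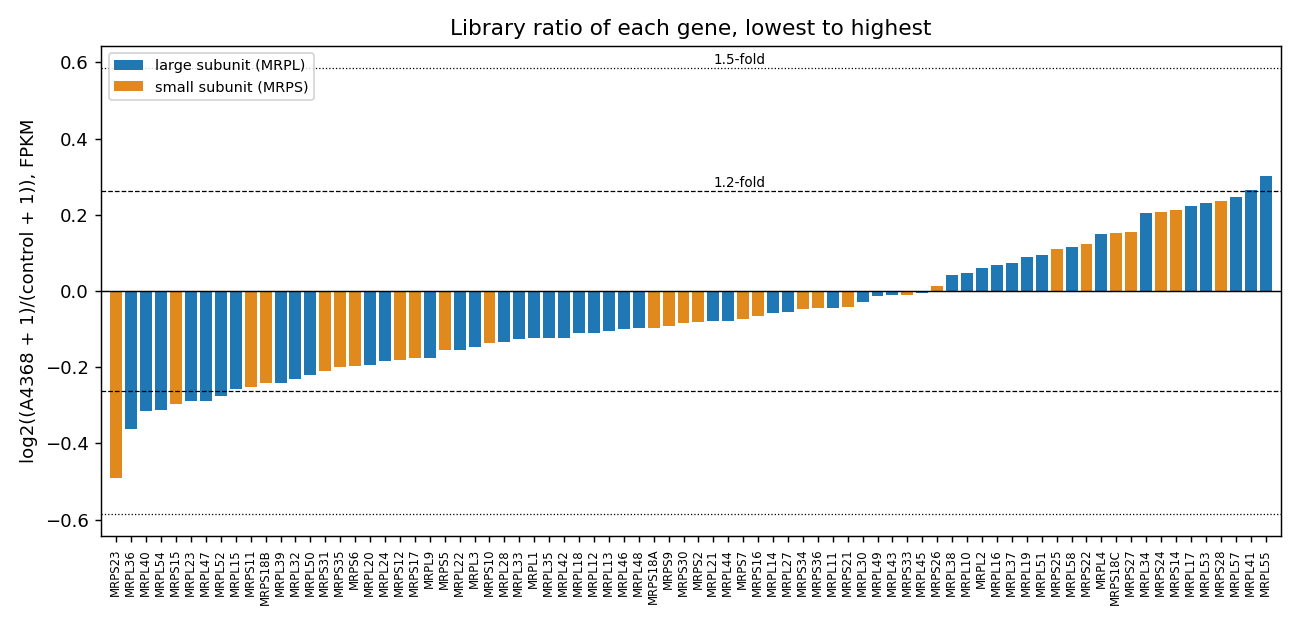
Ratio of A4368 to control of each gene on the log2(FPKM + 1) scale, ordered from lowest to highest, with large subunit genes in blue and small subunit genes in orange. Dashed lines mark 1.2-fold and dotted lines 1.5-fold; MRPS23 at -0.49 is the lowest, MRPL55 at 0.30 is the highest, and both subunits are spread over the whole range.

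Some genes were followed by the known place of their protein in the ribosome, chosen after their values were seen. On the stalk that recruits translation factors, MRPL10 was at 42.3 FPKM with A4368 and 40.9 FPKM in the control. Its neighbour MRPL11 was at 147 FPKM with A4368 and 151 FPKM in the control. MRPL12, the stalk protein also known to bind the mitochondrial RNA polymerase, was at 112 FPKM with A4368 and 121 FPKM in the control. Near the tunnel exit, MRPL22 and MRPL24 were lower with ratios of -0.15 and -0.18, as were MRPL23 and MRPL47. The proteins of that site were not listed in full, so no direction is given for the site as a whole. MRPL45, which helps anchor the ribosome to the inner membrane, was at 74.8 FPKM with A4368 and 75.1 FPKM in the control. MRPL58, a release factor-like protein that frees stalled ribosomes, had 42.4 FPKM with A4368 and 39.1 FPKM in the control. MRPS12, a protein of the decoding centre, had 76.6 FPKM with A4368 and 86.9 FPKM in the control.

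The MRPS18 paralogues also went different ways. MRPS18C, the member named bS18m that fills the bacterial position, had 37.1 FPKM with A4368 and 33.3 FPKM in the control, while MRPS18B, named mS40, had a ratio of -0.24. MRPS18A had 57.6 FPKM with A4368 and 61.7 FPKM in the control. MRPS30, the other large subunit protein under an MRPS symbol, had 34.4 FPKM with A4368 and 36.5 FPKM in the control, and MRPS36 had 46.3 FPKM with A4368 and 47.8 FPKM in the control. MRPS18A and MRPS18C have 49.3% and 42.7% of their 31-base words in common with other genes, mostly RSPH9 and ABRAXAS1, which lie on the opposite strand. No source used here says whether the libraries kept strand, so reads of such partners cannot be told apart.

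Subunits of the same ribosome that carry other symbols lay outside the rule. Of 5 such genes 2 were lower and 3 higher, and PTCD3 alone lay outside the range of the 78. PTCD3, a pentatricopeptide repeat protein of the small subunit, was 1.78-fold higher, at 39.5 FPKM with A4368 and 22.2 FPKM in the control, past the 1.5-fold limit, as were 1.08% of all genes in that direction. In GENCODE release 29 its exons overlap no other gene, and 4.62% of its 31-base words recur elsewhere. CHCHD1 was at 58.7 FPKM with A4368 and 67.9 FPKM in the control, and GADD45GIP1, a large subunit protein, at 54.3 FPKM with A4368 and 61.5 FPKM in the control. AURKAIP1 had 193 FPKM with A4368 and 184 FPKM in the control, and DAP3, a GTP-binding protein of the small subunit, had 109 FPKM with A4368 and 106 FPKM in the control.

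Genes that build and run the ribosome are set here beside all genes, of which 48.0% were lower and 52.0% were higher. By at least 1.2-fold, 11.1% of all genes were lower and 11.2% were higher. Of 28 genes of mitoribosome assembly and rRNA modification 10 were lower and 18 higher, with a median of 0.05; 3 were lower and 2 higher by 1.2-fold. The lowest was GRSF1, a protein of mitochondrial RNA granules, at 57.1 FPKM with A4368 and 73.5 FPKM in the control. The highest was RPUSD3, a pseudouridine synthase family protein, at 37.6 FPKM with A4368 and 28.7 FPKM in the control. Of 14 translation factors 6 were lower and none differed by 1.2-fold, with a median of 0.03. MTIF3, an initiation factor, was the lowest at 24.7 FPKM with A4368 and 27.0 FPKM in the control. MTFMT, which formylates the initiator methionine, was the highest at 5.35 FPKM with A4368 and 4.50 FPKM in the control.

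The counts of lower genes in the next lists stand beside 48.0% of all genes. Mitochondrial transcription and RNA processing genes were lower in 11 of 20 cases, with a median of -0.04. TFB2M, a mitochondrial transcription initiation factor, was the lowest there, at 23.3 FPKM with A4368 and 29.9 FPKM in the control. HSD17B10, a subunit of mitochondrial RNase P, was the highest, at 62.5 FPKM with A4368 and 55.9 FPKM in the control. Protein import and quality control genes were lower in 10 of 20 cases, with a median of -0.0036; the import channel gene TOMM40 had the lowest ratio, at 82.3 FPKM with A4368 and 102 FPKM in the control, and the protease gene SPG7 the highest, at 21.9 FPKM with A4368 and 17.9 FPKM in the control. Of 10 regulators of nuclear genes for mitochondria 8 were measured above the filter and 6 were lower, with a median of -0.14. PPRC1, a coactivator related to PGC-1, had 8.06 FPKM with A4368 and 11.4 FPKM in the control. GABPB1, a subunit of the ETS factor GABP, had 15.2 FPKM with A4368 and 20.1 FPKM in the control. GABPA, another subunit of GABP, had 17.5 FPKM with A4368 and 16.9 FPKM in the control, with a ratio of 0.05. YY1 had 25.6 FPKM with A4368 and 27.2 FPKM in the control. NRF1 had the highest ratio of the list, at 8.80 FPKM with A4368 and 7.95 FPKM in the control.

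Beside the other ribosome of the cell, the mitochondrial genes were alike in median and wider in spread. Of 79 cytosolic ribosomal protein genes 74 were lower, with a median of -0.11 and an SD of 0.09, against 55 of 78 with a median of -0.08 and an SD of 0.17 for the mitochondrial ones. Nuclear genes for respiratory chain and ATP synthase subunits, whose partner subunits the mitochondrial ribosome makes, were lower in 36 of 76 cases, with a median of 0.0033. Of all genes 48.0% were lower. All groups come from the same pair of libraries, and no difference between them was tested. After the rescaling, 64 cytosolic and 23 respiratory chain genes were lower, against 39.1% of all genes. The cytosolic genes were far more abundant, with a median of 897 FPKM with A4368 and 957 FPKM in the control.

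Several members start back to back with another gene. In the GENCODE release 29 annotation 17 of the 78 (21.8%) have a protein-coding gene starting within 1000 bases upstream on the opposite strand, against 10.3% of protein-coding genes at 1 FPKM or more. MRPL46 and MRPS11, one gene of each subunit, start 34 bases apart in that annotation. The RefSeq windows used for the promoters place their starts farther apart. Both were lower, MRPL46 at 45.9 FPKM with A4368 and 49.3 FPKM in the control and MRPS11 as given above. MRPL36 starts 34 bases from NDUFS6, a complex I subunit gene, which was at 105 FPKM with A4368 and 107 FPKM in the control. MRPL47 starts 36 bases from NDUFB5, another complex I subunit gene, at 151 FPKM with A4368 and 149.7 FPKM in the control. The low ratios of MRPL36 and MRPL47 thus stood beside partners with ratios of -0.03 and 0.0091. MRPL52 and its partner SLC7A7 had ratios of -0.28 and -0.27, while MRPL54 and its partner APBA3 had ratios of -0.31 and 0.35. Of the 15 members whose partner had values, 9 had the same direction as the partner. MRPL46 and MRPS11 are counted once each, so their pair enters from both sides. The like share for such pairs among all genes was not computed.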

How the data were processed

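The table deposited by the authors pairs gene symbols with 1 column of values for each of 2 Hep3B libraries, 1 per group. Its header names no unit. Per the submitters' processing notes the tools were Cufflinks, Bowtie2 2.2.3 and TopHat2 2.0.12, on hg19, and the deposited values are not whole numbers, so they were read as FPKM, the unit Cufflinks reports. Of 24302 lines 11511 held values. What emptied the other lines, and which annotation was used, is not stated in the labels. FPKM carries no counts, so the depth is unknown and no interval can be given.

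Ratios used a pseudocount of 1 and the 11238 genes whose mean reached 1 FPKM. There was no test, since each group has 1 library. The members and the gene lists were chosen with earlier results of these data known. Genes named with values are the 5 highest and 5 lowest ratios and the 3 most and 3 least abundant genes of each subunit, the MRPS18 paralogues, MRPS30, MRPS36, MRPL12, the extremes of each other list and the markers ALB and AFP. Other genes were named after their values were seen, for their site in the ribosome, their partner or the sentence they stand in.

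Systematic names and promoters are from RefSeq (GRCh38.p14), and neighbours, overlaps and shared words of 31 bases from GENCODE release 29. The files' build differs, so no coordinates of theirs are given. The ratios and counts were tested on simulated data. Python 3.11.15, numpy 2.4.6, pandas 2.3.3 and matplotlib 3.10.9 were used. One marker gene of the lists is not reported here.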

Additional observations from a re-analysis of the deposited data

How the results depend on the processing

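Alternatives were pseudocounts 0.1 and 5, leaving out the filter or raising it to 5 FPKM, centring on genes whose mean reached 10 FPKM, the rescaling without the 50 highest genes, means in place of medians and subunits taken from the structure. Runs without members that share at least 50% of their sequence (MRPL12, at 67.2%) and without the 16 members whose exons overlap another gene on the same strand were chosen after seeing the data. With no replicates, a median was taken as unmoved within 0.05 log2 units with its sign kept, and a count within 1.5 times. That tolerance is wide beside the median of the 78 genes, -0.08 as reported, which was -0.03 after the rescaling and counted as unmoved, and a count of 55 among 78 cannot exceed its upper bound, so a value counted as unmoved is no sign of stability. The large minus small subunit difference, -0.02 as reported, was 0.0072 with means and 0.0025 without overlapping members. The count of all genes past 1.5-fold, 359 as reported, was 628 with a pseudocount of 0.1, 98 with a pseudocount of 5 and 198 with the filter at 5 FPKM, since the pseudocount and the filter act on low genes. The count of members lower with A4368 was 46 after the rescaling and 55 with either pseudocount. The median of the members lay 0.09 below that of all genes, and likewise below that of the 8594 genes in their range of FPKM. Of those 8594 genes 6827 lie at the levels of the 26 least abundant members, so that background does not match the levels of the members. No paired analysis was possible because each group has 1 library. The unknown depth limits every value, and none can be tied to the spread between cultures.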

Other observations

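The transcripts of mitochondrial ribosomal protein genes are short. Their longest coding transcript had a median of 1516 bases in GENCODE release 29, against 3385 bases for all protein-coding genes at 1 FPKM or more, with a similar GC content of 48.9% and 48.2%. Across the 78 genes the ratio had a Spearman correlation of 0.15 with transcript length and 0.08 with GC content; across all 11183 matched genes these were 0.08 and -0.0049. These are correlations across genes of the same pair of libraries, which are not independent replicates.

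The largest change of place in the order of levels was that of MRPS23, which stood at place 38 of 78 with A4368 and at place 25 in the control. MRPL53 stood at place 21 with A4368 and at place 33 in the control. MRPL53 shares 42.3% of its sequence words with CCDC142, a gene annotated on the same strand, and reads of the shared stretch cannot be told apart.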
